A study of Mus musculus with 30 samples.

Results

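The comparison covered 10 kidneys of mice given aristolochic acid I (AAI), 5 from Trp53(-/-) and 5 from Trp53(+/+) animals, out of 30 kidneys in the series. The arrays were assigned to the groups by their labels alone, and the difference of mean log2 levels (Trp53(-/-) minus Trp53(+/+)) was taken among the AAI kidneys only. All animals were male C57BL/6 mice, 9 to 11 weeks old, and the AAI groups were injected with 3.5 mg/kg body weight every day for 6 days. Kidneys were taken 24 h after the last dose. Trp53(-/-) mice carry on both chromosomes the Trp53tm1Tyj allele, in which a neomycin cassette interrupts the gene in every cell, so no p53 protein is made anywhere in the animal, and Trp53(+/+) mice carry the unaltered gene. Both genotypes also had 5 kidneys each from mice injected with water, and 5 Trp53(+/-) kidneys per treatment completed the study. RNA came from a portion of whole kidney, so all cell types were measured together, and fewer cells of a type cannot be told apart from less RNA per cell. Each kidney was read on 1 Clariom S mouse array.

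AAI is a plant toxin that is taken up by the proximal tubule, is reduced there by enzymes such as NQO1, and binds to purines in DNA. p53, the product of Trp53, is a transcription factor that accumulates after DNA damage and switches on genes for cell-cycle arrest, apoptosis, DNA repair and its own breakdown. In p53-competent cells the p21 protein also keeps the promoters of many S-phase and mitosis genes shut through the DREAM repressor complex, which binds a short element called CHR.

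A limit of the design touches every value that follows. The complementary DNA was made in 2 batches, and all 5 Trp53(-/-) AAI arrays lay in the same batch while 4 of the 5 Trp53(+/+) AAI arrays lay in the other. The labels do not say which Trp53(+/+) array shared the batch of the Trp53(-/-) arrays. A batch term was therefore fitted for each of the 5 possible assignments, and each such value is the Trp53(-/-) mean minus a single Trp53(+/+) array. With a single array on that side the standard error is larger, so fewer clusters would pass even without any batch effect. A lower count with a batch term therefore does not measure the part of the batch. Water kidneys were split in the same way, Trp53(+/+) in the first batch and Trp53(-/-) and Trp53(+/-) in the second. The difference in AAI kidneys minus the difference in water kidneys, called the interaction here, subtracts most of a shift that the batch would add to both.

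Arrays of a group resembled each other closely, with correlations of 0.976 to 0.986 among Trp53(+/+) AAI arrays and 0.976 to 0.988 among Trp53(-/-) AAI arrays. Replicate 1 of the Trp53(+/+) AAI kidneys stood apart, with the highest p53 targets and the lowest proximal tubule transcripts of its group. No transcript cluster of the array was named Trp53, so the level of the deleted gene was not analysed here. Of the 25 genes on either side of Trp53 on chromosome 11, 28 were measured and 0 passed the test in AAI or in water kidneys, with differences of -0.31 to 0.30. The tissue carried kidney transcripts, and the 87 measured genes of 2 proximal tubule lists had a mean log2 level of 9.50 in Trp53(+/+) water kidneys and of 7.42 in Trp53(+/+) AAI kidneys.

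In AAI kidneys that lacked p53, transcripts of p53 target genes were lower, and transcripts for DNA replication and mitosis, several cytokines and interferon-response genes were higher than in AAI kidneys with p53. Of 22139 transcript clusters, 404 were higher in Trp53(-/-) AAI kidneys (1.82% of those tested) and 283 were lower (1.28%), 687 in all (3.1%), at an adjusted p under 0.05 by limma with Benjamini-Hochberg adjustment. A change of at least 2-fold was seen in 78 of the higher clusters (0.352%) and 36 of the lower ones (0.163%). The median difference over all clusters was 0.008. In 229 of the higher and 142 of the lower clusters every Trp53(-/-) array lay on the same side of every Trp53(+/+) array, while over all clusters 1.97% lay wholly above and 1.49% wholly below. With a batch term the number of called clusters fell to between 7 and 229 according to the assignment, and 2 genes, Ccng1 and Ces2e, stayed past the threshold under all 5 assignments.

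p53 target genes were among those with the largest negative differences, with Ccng1 at -2.34 and Eda2r at -2.20 beside 1700007K13Rik (-2.32) and Ces2e (-2.26), which stood on none of the p53 lists. The 3 p53 target lists, for arrest and feedback, for apoptosis, and for repair and metabolism, held 66 measured genes, of which 16 were lower, 6 of them by at least 2-fold, and 0 higher, against 1.28% of all clusters called lower. Their median difference was -0.18, and 46 of the 66 lay below 0. The mean level of the 66 genes was 7.33, 6.91, 6.94, 6.85 and 6.92 in the Trp53(+/+) AAI arrays and 6.61, 6.66, 6.72, 6.71 and 6.71 in the Trp53(-/-) AAI arrays. Every Trp53(-/-) AAI kidney was thus below every Trp53(+/+) AAI kidney. In water kidneys the same genes had a median difference of 0.21 in the opposite direction, and 4 were higher and 0 lower. In water kidneys the median was 0.19 between Trp53(+/-) and Trp53(+/+) and -0.03 between Trp53(-/-) and Trp53(+/-). The count of 16 ranged from 14 to 18 with single AAI arrays left out, and from 1 to 9 with a batch term.

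Promoters are shown for p53 targets that fell and whose windows hold a match to the p53 half-site, so the choice rests on the match. Among these, the genes with the smallest adjusted p were taken. Of 13 genes called lower with a window listed, 5 held a match, and of these Polk and Ei24 are not shown. Of the 2 starts listed for Rps27l the one with matches is given. Sequences are RefSeq windows of build GRCm38.p6, from 250 bases before to 50 after a start site, and capitals mark each exact 10-base match to the p53 half-site, which reads the same on both strands.
Ccng1, chr11:40755237-40755536, minus strand: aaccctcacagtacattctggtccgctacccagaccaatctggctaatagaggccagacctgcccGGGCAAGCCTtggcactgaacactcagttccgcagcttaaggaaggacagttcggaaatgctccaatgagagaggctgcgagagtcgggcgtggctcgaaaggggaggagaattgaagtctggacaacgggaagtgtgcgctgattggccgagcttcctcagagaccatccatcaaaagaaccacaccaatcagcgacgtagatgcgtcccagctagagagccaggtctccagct
Rps27l, chr9:66946163-66946462, plus strand: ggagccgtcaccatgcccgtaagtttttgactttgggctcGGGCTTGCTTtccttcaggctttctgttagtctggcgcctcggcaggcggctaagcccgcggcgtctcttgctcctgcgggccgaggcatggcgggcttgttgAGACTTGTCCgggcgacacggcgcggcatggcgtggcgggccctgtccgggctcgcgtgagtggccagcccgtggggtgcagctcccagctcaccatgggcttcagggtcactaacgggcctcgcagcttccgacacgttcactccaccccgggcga
Mdm2, chr10:117710709-117711008, minus strand: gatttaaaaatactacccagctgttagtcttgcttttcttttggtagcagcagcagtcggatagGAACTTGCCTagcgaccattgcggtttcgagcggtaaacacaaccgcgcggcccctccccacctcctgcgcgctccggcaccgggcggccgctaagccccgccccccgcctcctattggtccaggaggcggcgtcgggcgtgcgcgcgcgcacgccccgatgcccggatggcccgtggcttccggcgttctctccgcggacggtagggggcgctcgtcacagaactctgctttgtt
The match began 185 bases before the start in Ccng1 and 186 bases before it in Mdm2. Such a match was held by 8.4% of all 32851 promoter windows, by 5 of the 18 windows of p53 targets called lower (27.8%) and by 11 of the 59 windows of the other measured targets (18.6%), and several windows can belong to the same gene. The windows of Eda2r, Zfp365, Dcxr and Dglucy, which also fell and had a smaller adjusted p than Mdm2, held none.

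Among arrest and feedback genes, 4 of 19 measured members were lower, against 1.28% of all clusters, and 0 higher. The median difference was -0.19, and all 4 fell by more than 2-fold. Ccng1, which encodes cyclin G1 and is induced by p53, had log2 levels of 10.99, 10.26, 10.13, 9.68 and 9.93 in Trp53(+/+) AAI arrays and 7.96, 7.68, 7.78, 7.68 and 8.21 in Trp53(-/-) AAI arrays. The groups did not overlap and the mean was 5.05-fold lower, a log2 difference of -2.34 ± 0.19 (SE, n = 5 per group; limma adjusted p = 2.41e-09). In water kidneys the Ccng1 difference was -0.34 (adjusted p = 0.405), and the interaction passed (adjusted p = 8.24e-05). Against single Trp53(+/+) arrays the Ccng1 difference lay between -3.13 and -1.82.

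Zfp365, a p53-induced gene linked to stability of replicating DNA, read 7.48, 6.73, 6.74, 6.80 and 6.68 in Trp53(+/+) AAI arrays against 5.26, 5.36, 5.36, 5.19 and 5.52 in Trp53(-/-) AAI arrays. It was 2.92-fold lower (adjusted p = 1.97e-06). Trp53inp1, a nuclear protein that promotes p53 phosphorylation and autophagy, read 7.60, 6.88, 6.71, 7.10 and 7.03 against 5.04, 5.20, 4.81, 6.55 and 6.40. Its Trp53(-/-) arrays fell into a lower set of 3 and a higher set of 2, all of them below the Trp53(+/+) arrays, and the difference was -1.46 ± 0.27 (adjusted p = 0.00148). Mdm2, the ubiquitin ligase that degrades p53, read 10.64, 9.58, 9.52, 9.07 and 9.40 against 8.62, 8.88, 8.57, 8.30 and 8.48. It was 2.1-fold lower (adjusted p = 0.000286), again without overlap.

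Cdkn1a, which encodes p21, did not pass the test. Its levels were 11.69, 9.76, 9.77, 9.46 and 9.77 in Trp53(+/+) AAI kidneys and 8.60, 9.21, 9.88, 10.52 and 10.29 in Trp53(-/-) AAI kidneys, so the groups overlapped. The difference was -0.39 ± 0.34 (adjusted p = 0.638) and was 0.01 without Trp53(+/+) AAI replicate 1. Mean Cdkn1a was 6.43 in Trp53(-/-) water kidneys and 9.70 in Trp53(-/-) AAI kidneys.

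**Figure D1:**
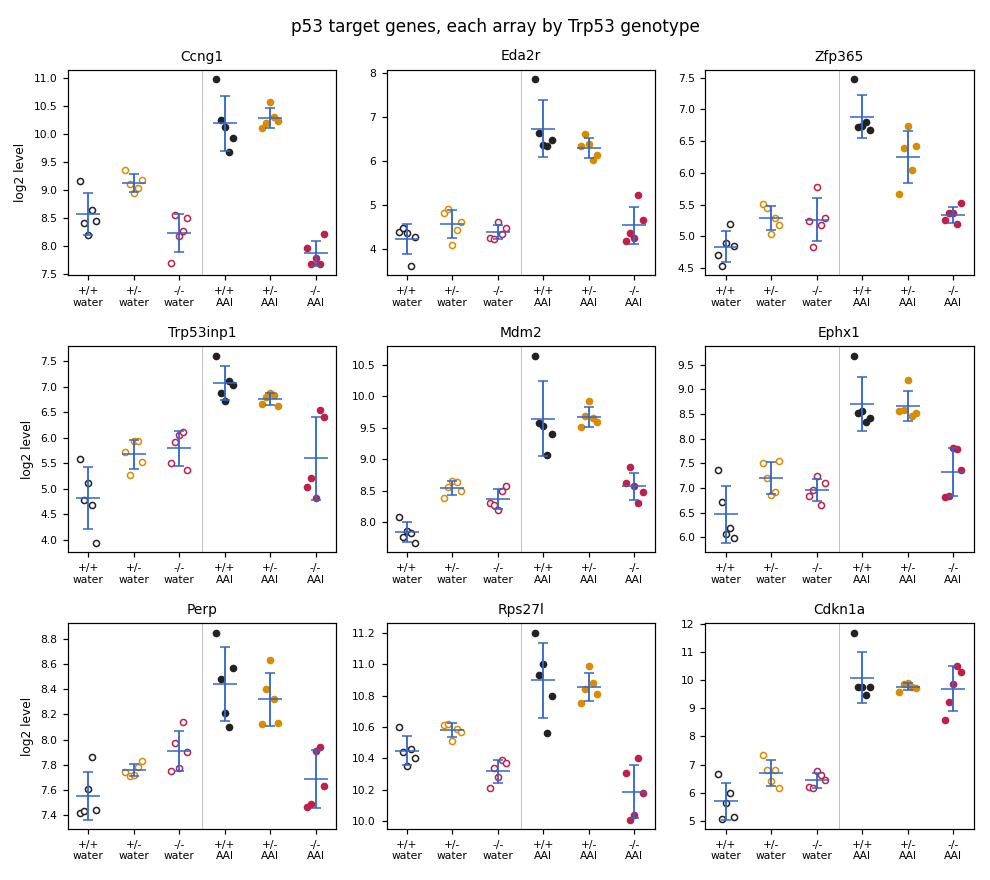
Log2 level (vertical axis) of 9 p53 target genes in each of the 30 arrays, by Trp53 genotype and treatment; open points are water kidneys, filled points AAI kidneys, and blue bars show mean ± SD (n = 5). In AAI kidneys the first 8 genes are lower in all Trp53(-/-) arrays than in all Trp53(+/+) arrays, and Cdkn1a overlaps.

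Among apoptosis genes, 5 of 18 measured members were lower, against 1.28% of all clusters, and 0 higher, with a median difference of -0.23. Eda2r, a receptor of the TNF family, fell from 7.87, 6.64, 6.37, 6.34 and 6.47 to 4.18, 4.37, 4.24, 5.23 and 4.65, a 4.61-fold lower mean (adjusted p = 3.29e-07). Perp, a membrane protein that p53 induces during apoptosis, was -0.75 ± 0.13 (adjusted p = 0.000665), and Rps27l, a ribosomal protein variant induced by p53, was -0.71 ± 0.10 (adjusted p = 5.46e-05). Neither gene overlapped between the groups. Pmaip1, which encodes the BH3-only protein Noxa, differed by -0.74 (adjusted p = 0.0233), and Ei24 differed by -0.45 (adjusted p = 0.0241). Both calls were lost when some single arrays were left out, and the count of 5 was 3 when Trp53(+/+) AAI replicate 1, Trp53(-/-) AAI replicate 1 or Trp53(-/-) AAI replicate 2 was left out. The other 13 members, among them the death receptor gene Fas, did not pass.

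Among repair and metabolism genes, 7 of 29 were lower, against 1.28% of all clusters, and 0 higher, with a median of -0.14. Ephx1, the microsomal epoxide hydrolase, read 9.68, 8.53, 8.57, 8.33 and 8.42 against 6.82, 6.84, 7.82, 7.79 and 7.36, and was 2.6-fold lower (adjusted p = 0.00109). Dcxr, dicarbonyl and L-xylulose reductase, was -0.97 ± 0.14 (adjusted p = 0.000156), and Dglucy, a D-glutamate cyclase, was -0.83 ± 0.13 (adjusted p = 0.000279). The repair genes on the list that fell were Polk, a translesion polymerase (-0.67, adjusted p = 0.00546), and Ercc5, the XPG nuclease of nucleotide excision repair (-0.61, adjusted p = 0.00285). Slc19a2, a thiamine transporter, and Ak1, an adenylate kinase, completed the 7 at -0.64 and -0.63.

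The interaction passed for 23 clusters (0.104% of those tested), 18 lower and 5 higher (0.0226%) in Trp53(-/-) AAI kidneys relative to their water difference. A batch term cancels from the interaction and only drops the Trp53(+/+) AAI array assigned to the shared batch. The 22 to 33 clusters that passed with it are thus those without that array and do not test the batch. Of the 66 p53 targets 9 were among the 18 (0.0813% of all clusters), namely Ccng1, Zfp365, Trp53inp1, Mdm2, Eda2r, Perp, Tnfrsf10b, Ephx1 and Ercc5. Tnfrsf10b, a TRAIL receptor, was called by the interaction alone (adjusted p = 0.00768), with differences of -0.51 in AAI kidneys (adjusted p = 0.0604) and 0.68 in water kidneys. The 5 clusters on the higher side were Sgo1, Hirip3, Wdr76, Idh3a and Psmc3ip, named after their values were seen. Their AAI differences were 1.73 for Sgo1, 1.04 for Hirip3, 0.59 for Wdr76, 0.63 for Idh3a and 0.58 for Psmc3ip.

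**Figure D2:**
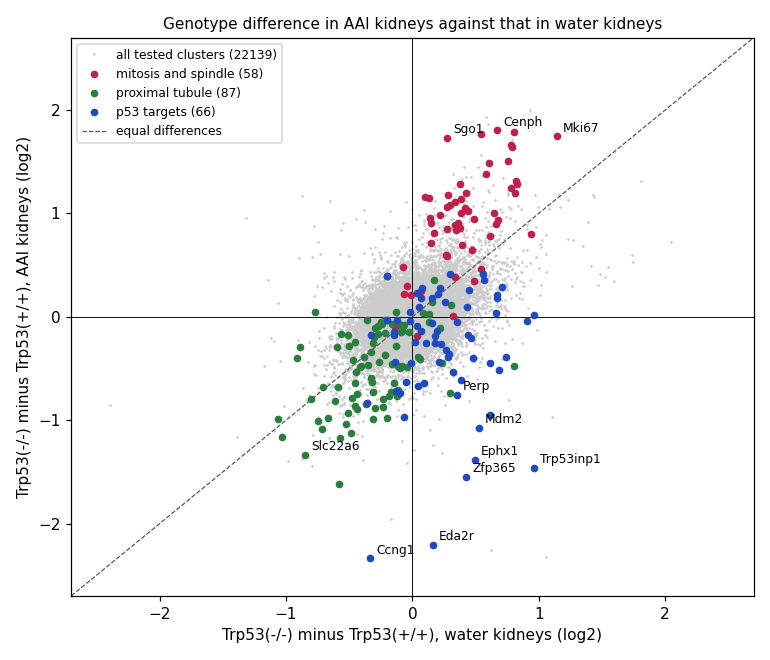
Difference between Trp53(-/-) and Trp53(+/+) kidneys after AAI (vertical axis, log2) against the same difference after water (horizontal axis, log2) for 22139 clusters in grey, with 3 groups of listed genes coloured; the dashed line marks equal differences. Ccng1 and Eda2r lie below the line by 2.0 and 2.37 and most mitosis genes lie above 0 on both axes, and both axes share the cDNA batch split.

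Other genes with large negative differences stood on none of the p53 lists. 1700007K13Rik read 8.47, 6.32, 6.55, 6.05 and 6.66 in Trp53(+/+) AAI arrays and 4.30, 4.34, 4.80, 4.32 and 4.65 in Trp53(-/-) AAI arrays, 5.01-fold lower (adjusted p = 7.99e-06). Ces2e, a carboxylesterase, read 8.81, 8.16, 8.03, 7.46 and 8.03 against 6.20, 5.64, 5.37, 5.96 and 6.05, 4.79-fold lower (adjusted p = 2.72e-09). Both were separate in every array and both passed the interaction (adjusted p = 1.3e-05 and 7.5e-08). Trp53(+/-) AAI kidneys, of the same batch as most Trp53(+/+) AAI kidneys, had a mean Ces2e of 8.18 against 8.10 in Trp53(+/+) and 5.84 in Trp53(-/-). Gria3, a glutamate receptor subunit, was -1.96 (adjusted p = 7.04e-05), Sucnr1, the succinate receptor, was -1.44 (adjusted p = 1.58e-05) and Cd55, which restrains complement on cell surfaces, was -1.42 (adjusted p = 3.86e-05), the only call among 27 complement and acute phase genes. Tmigd1, an adhesion protein of tubular epithelium, was -1.37, and Olfr1318, an olfactory receptor gene, was -1.33. Mmp2, the matrix metalloprotease gelatinase A, fell by 1.31 on the log2 scale (adjusted p = 0.000199) and was the only matrix gene of 39 to pass, while the list's median was 0.20. Over all clusters 1.28% were called lower, so 1 call in the matrix or the complement list says little about the list.

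Genes of cell division were higher in Trp53(-/-) AAI kidneys. Of 58 measured mitosis and spindle genes, 44 were higher and 0 lower against a background of 1.82%, 27 of them by at least 2-fold, with a median difference of 0.95. The list's mean level was 6.17, 5.97, 6.01, 5.65 and 5.59 in Trp53(+/+) AAI arrays and 6.70, 7.09, 7.10, 6.76 and 6.45 in Trp53(-/-) AAI arrays. All Trp53(-/-) arrays were above all Trp53(+/+) arrays. The means were 5.01 in Trp53(+/+), 5.27 in Trp53(+/-) and 5.41 in Trp53(-/-) water kidneys, and 5.82 in Trp53(+/-) AAI kidneys. In water kidneys the median difference was 0.38. It was 0.24 between Trp53(+/-) and Trp53(+/+) water kidneys, which differ in batch, and 0.15 between Trp53(-/-) and Trp53(+/-) water kidneys, which share a batch. Between 40 and 45 members were called with each AAI array left out in turn, and between 0 and 21 with a batch term, where the median stayed at 0.67 or more.

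Sgo1, shugoshin, which protects centromeric cohesion, read 5.18, 4.52, 4.81, 4.64 and 4.17 in Trp53(+/+) AAI arrays against 6.12, 6.58, 6.69, 6.24 and 6.35 in Trp53(-/-) AAI arrays. It was 3.32-fold higher (adjusted p = 1.97e-06), and the only member of the list whose interaction passed (adjusted p = 0.0104). Cenph and Cenpk, both of the inner kinetochore, were 1.80 ± 0.24 (adjusted p = 3.37e-05) and 1.66 ± 0.22 (adjusted p = 3.28e-05) higher. Mki67, which encodes the proliferation marker Ki-67, read 7.99, 7.94, 7.55, 6.35 and 6.88 against 9.15, 9.63, 9.44, 8.94 and 8.28, a 3.35-fold difference (adjusted p = 0.000658). Its water levels were 6.02, 4.94, 4.07, 4.61 and 4.93 in Trp53(+/+) and 5.95, 6.10, 6.05, 6.04 and 6.12 in Trp53(-/-). Trp53(+/-) water kidneys, of the Trp53(-/-) batch, ran from 5.38 to 6.11. Cdk1, the kinase that starts mitosis, was 2.8-fold higher (adjusted p = 0.000197), and Top2a, which untangles DNA before division, was 1.51 higher on the log2 scale (adjusted p = 0.000273). Ect2, a regulator of cytokinesis (1.77), and Bub1, a spindle checkpoint kinase (1.65), also rose without overlap. So did Ncapg, a condensin subunit (1.45), and Atad2, a chromatin protein (1.71), which stood outside the list. Birc5, survivin, was 0.85 higher (adjusted p = 0.00262).

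Promoters of Cdk1 and Top2a are shown with the CHR letters TTTGAA and the CCAAT box in capitals, searched on both strands, because both genes rose and carry both elements; none of the marked stretches overlap.
Cdk1, chr10:69352863-69353162, minus strand: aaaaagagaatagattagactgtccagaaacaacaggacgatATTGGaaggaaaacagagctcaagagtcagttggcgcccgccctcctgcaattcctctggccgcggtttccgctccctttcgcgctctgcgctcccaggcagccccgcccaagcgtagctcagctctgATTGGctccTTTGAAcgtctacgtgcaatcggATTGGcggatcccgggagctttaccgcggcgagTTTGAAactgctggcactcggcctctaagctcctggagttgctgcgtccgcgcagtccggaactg
Top2a, chr11:99024140-99024439, minus strand: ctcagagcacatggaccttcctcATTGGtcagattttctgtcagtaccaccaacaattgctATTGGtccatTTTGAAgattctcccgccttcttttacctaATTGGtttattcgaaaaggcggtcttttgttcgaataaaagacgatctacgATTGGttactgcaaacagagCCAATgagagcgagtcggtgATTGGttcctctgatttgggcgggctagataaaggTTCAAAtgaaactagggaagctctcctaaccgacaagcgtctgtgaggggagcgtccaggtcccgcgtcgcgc
TTTGAA was found in 30 of 43 promoter windows of the mitosis genes called higher (69.8%), in 6 of 10 windows of the other measured mitosis genes and in 17.9% of all windows. CCAAT was found in 33 of the 43 (76.7%), in 8 of the 10 and in 37.4% of all. The windows of Sgo1, Cenph and Cenpk held CCAAT but no TTTGAA.

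DNA replication genes behaved alike, with 22 of 39 measured members higher and 0 lower, against 1.82% of all clusters called higher. All 39 differences lay above 0 (median 0.57). Between 16 and 24 passed with single AAI arrays left out and between 0 and 12 with a batch term. Dbf4, which activates the replication kinase Cdc7, was 1.19 ± 0.19 higher (adjusted p = 0.000286). Pole, a leading-strand polymerase, was 1.00 ± 0.17 (adjusted p = 0.000453), Ticrr, needed for origin firing, 0.98 (adjusted p = 0.00041), and Mcm3, of the replicative helicase, 0.92 (adjusted p = 0.000286). Mcm3 was also higher in Trp53(-/-) water kidneys, by 0.81 (adjusted p = 0.00986). Of 25 G1/S regulators 6 were higher, among them E2f8 (1.45, adjusted p = 0.00288), Myc (1.12, adjusted p = 0.0159) and Ccne1, cyclin E1 (0.57, adjusted p = 0.0189), while Cdk2 was at 0.36 (adjusted p = 0.271). A batch term left 0 or 1 called, and the count was 2 or 3 without Trp53(+/+) AAI replicate 2 or 5, or Trp53(-/-) AAI replicate 2 or 3. Of 17 nucleotide supply genes 4 were higher, Rrm1 and Rrm2 of ribonucleotide reductase (1.11 and 0.74), Cad of pyrimidine synthesis (0.50) and Samhd1, a dNTP hydrolase (0.76), and 2 were without Trp53(-/-) AAI replicate 2 and 0 or 1 with a batch term.

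Homologous recombination and Fanconi genes, which repair breaks and crosslinks in replicating DNA, had 14 of 34 members higher and 0 lower (median 0.46). Over all clusters 1.82% were called higher. Brca1 read 5.36, 5.57, 5.52, 5.38 and 4.79 in Trp53(+/+) AAI arrays against 6.65, 6.83, 6.78, 6.27 and 6.09, and was 2.3-fold higher (adjusted p = 0.000216). Fanci, of the Fanconi anaemia pathway, was 1.25 higher (adjusted p = 0.00129), Rad18, a ubiquitin ligase of translesion synthesis, 0.89 (adjusted p = 0.00323), and Topbp1, a checkpoint activator, 0.82 (adjusted p = 0.00302). Brca2 was 0.68 higher (adjusted p = 0.0288). The water median of the list was 0.04, and 0 members passed there. The count of 14 was 9 when Trp53(+/+) AAI replicate 4 or 5, or replicate 2 or 3 of the Trp53(-/-) AAI kidneys, was left out, and 0 to 5 with a batch term.

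**Figure D3:**
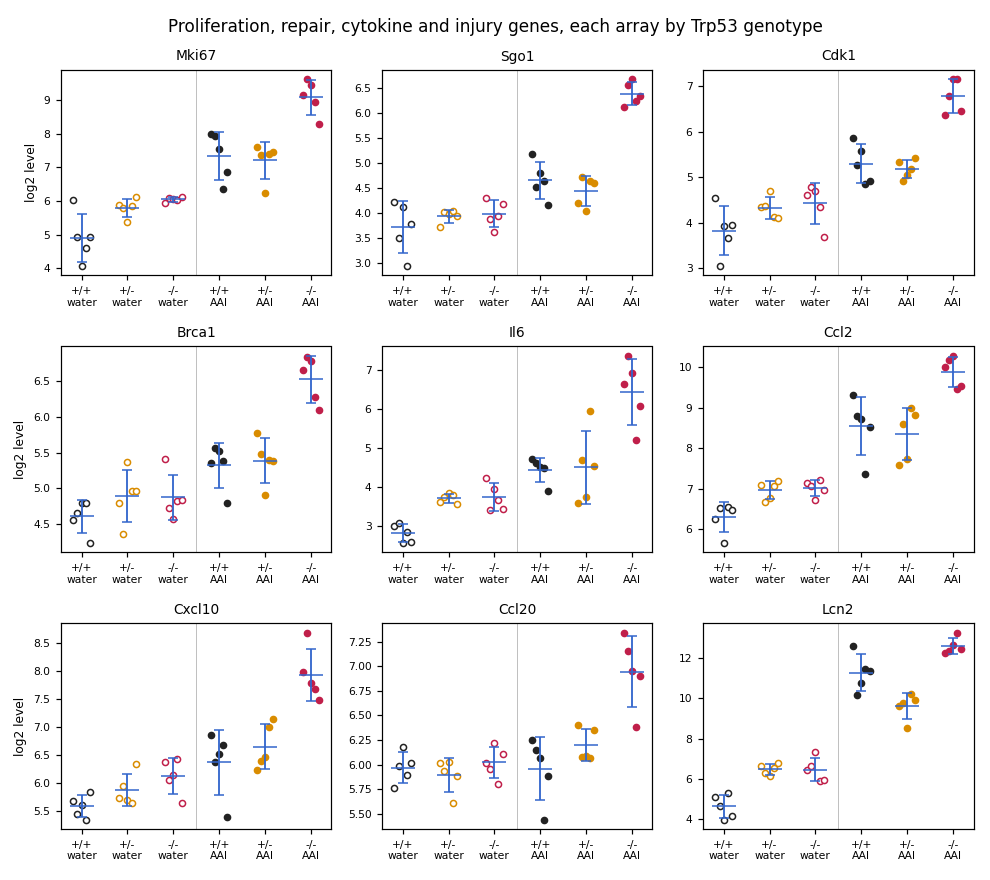
Log2 level (vertical axis) of 4 proliferation and repair genes, 4 cytokine genes and Lcn2 in each of the 30 arrays, by Trp53 genotype and treatment; open points are water kidneys, filled points AAI kidneys, and blue bars show mean ± SD (n = 5). Mki67, Sgo1, Cdk1, Brca1, Il6, Ccl2, Cxcl10 and Ccl20 are higher in all Trp53(-/-) AAI arrays than in all Trp53(+/+) AAI arrays, and Lcn2 overlaps.

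Cytokine genes of the NF-kB list were higher for 11 of 40 measured members and lower for 0 (median 0.31), against 1.82% of all clusters called higher. The list's water median was 0.26 with 0 called, and the median of AAI minus water differences was 0.05. Between Trp53(+/-) and Trp53(+/+) water kidneys, which differ in batch, the median was 0.19. Il6, interleukin 6, had the largest positive difference of the named genes. It read 4.70, 4.60, 4.50, 4.48 and 3.89 in Trp53(+/+) AAI arrays against 6.65, 7.36, 6.92, 5.19 and 6.06 in Trp53(-/-) AAI arrays, 4.0-fold higher (adjusted p = 0.000286). Cxcl10, a chemokine for T cells, was 1.56 ± 0.23 (adjusted p = 0.000118), Ccl2, a chemokine for monocytes, 1.34 ± 0.27 (adjusted p = 0.00288), and Ccl20 0.99 ± 0.15 (adjusted p = 0.000156), and in all of these the arrays were separate. With a batch term 0 to 6 were called, and the median was at least 0.03. The count of 11 was 6 without Trp53(+/+) AAI replicate 4 or 5 or Trp53(-/-) AAI replicate 3, and 7 when replicate 2 of the Trp53(-/-) AAI kidneys was left out. Interferon-response genes were higher for 13 of 31 members, against 1.82% of all clusters, and lower for 0, with a median of 0.58 in AAI and 0.29 in water kidneys. Between 0 and 4 were called with a batch term, and the median was at least 0.38. Ifit2 (1.06, adjusted p = 0.00135), Xaf1 (1.01, adjusted p = 0.00129), Zbp1, a sensor of nucleic acids (0.76, adjusted p = 0.00148), and Psmb8, of the immunoproteasome (0.75, adjusted p = 0.00204), had the smallest adjusted p of that list. The interferon count was 6 without Trp53(+/+) AAI replicate 5 or Trp53(-/-) AAI replicate 2, and 7 when replicate 1 of the Trp53(-/-) AAI kidneys was left out. In water kidneys the interferon median was 0.28 between Trp53(+/-) and Trp53(+/+), which differ in batch. It was 0.02 between Trp53(-/-) and Trp53(+/-) water kidneys, which share a batch, and 0 members passed the interaction.

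Markers of immune cells are the values to hold beside these genes. Of 23 macrophage and monocyte markers 0 passed, 20 lay above 0 and the median was 0.30. The median was larger in water kidneys, at 0.51 with 1 called higher, and the median of AAI minus water differences was -0.22. Between Trp53(+/-) and Trp53(+/+) water kidneys, which differ in batch, it was 0.46. The mean level of the 23 markers ran from 6.49 to 7.31 in Trp53(+/+) AAI arrays and from 6.78 to 7.49 in Trp53(-/-) AAI arrays, so the groups overlapped. Of 18 T and NK cell markers, 10 B and plasma cell markers and 11 MHC class II and dendritic cell markers 0 passed, and 1 of 13 neutrophil markers did, the collagenase Mmp8 (0.91, adjusted p = 0.00654). Over all clusters 1.82% were called higher, a share to hold beside the small counts here. The part of these cells in the cytokine and division genes was not tested. Among stress genes Ddit3, which encodes CHOP, and Ppp1r15a, which encodes GADD34, were the 2 of 24 unfolded protein and stress response genes to rise (0.75 and 0.80), and 0 or 1 was called with a batch term. Of 27 Bcl2 family, caspase and IAP genes 4 rose, Bcl2a1b and Bcl2a1d (1.18 and 1.16, near-identical copies that probes may not separate), Casp4 (0.59) and Birc3 (0.54), and 0 to 2 did with a batch term and 2 without Trp53(+/+) AAI replicate 4 or Trp53(-/-) AAI replicate 2 or 3.

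**Figure D4:**
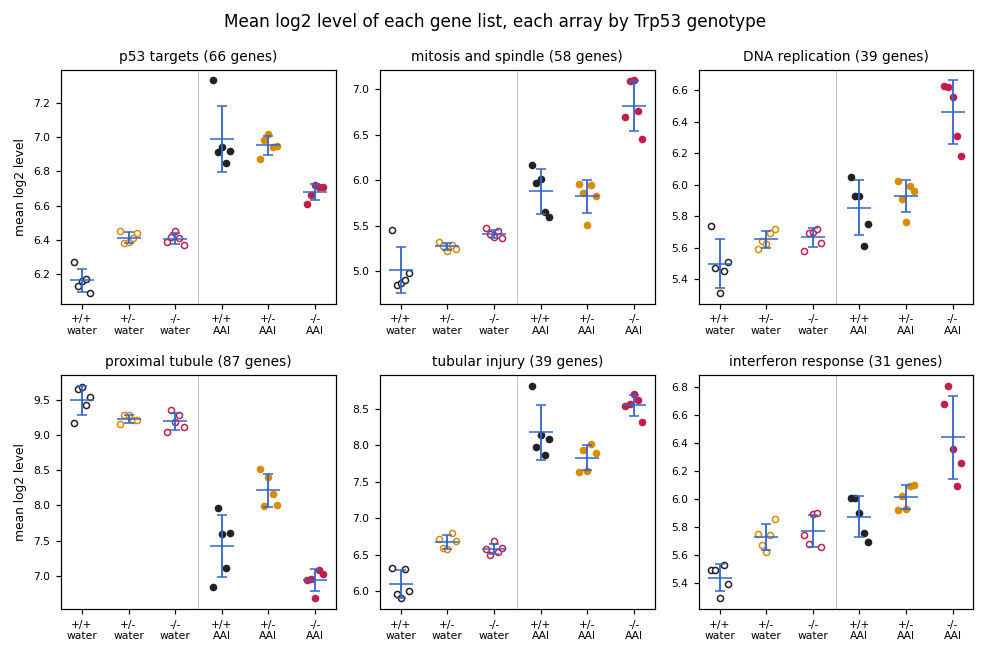
Mean log2 level (vertical axis) of 6 gene lists in each of the 30 arrays, by Trp53 genotype and treatment; open points are water kidneys, filled points AAI kidneys, and blue bars show mean ± SD (n = 5). Among AAI kidneys the p53 targets lie lower, and mitosis, DNA replication and interferon-response genes higher, in all Trp53(-/-) arrays, while proximal tubule and tubular injury genes overlap.

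Some proximal tubule genes were lower, in a comparison that depended on the batch assignment. The 2 proximal tubule lists held 87 measured genes, of which 17 were lower, against 1.28% of all clusters, and 0 higher, with a median difference of -0.47 and 80 differences below 0. With a batch term the count was 0, 26, 0, 0 and 5 for replicates 1 to 5 as the Trp53(+/+) array in the shared batch, and the median was 0.14 with replicate 1, -0.10 with replicate 4 and between -0.91 and -0.63 with the others. Their mean levels overlapped, at 6.84, 7.96, 7.60, 7.11 and 7.61 in Trp53(+/+) AAI arrays and 6.94, 6.96, 6.68, 7.08 and 7.03 in Trp53(-/-) AAI arrays. Trp53(+/+) AAI replicates 1 and 4 lay within the Trp53(-/-) range or next to it, and without replicate 1 the count was 27. In water kidneys the median was -0.30, and it was -0.26 between Trp53(+/-) and Trp53(+/+) water kidneys. Trp53(+/-) AAI kidneys had the highest mean of the AAI groups at 8.21.

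Slc22a6, the basolateral organic anion transporter OAT1 that carries aristolochic acid into the cell, read 6.54, 7.87, 7.23, 6.79 and 7.78 in Trp53(+/+) AAI arrays against 5.58, 5.27, 5.94, 6.09 and 6.68, 2.52-fold lower with an overlap of 1 array (adjusted p = 0.00051). Slco1a6, an organic anion transporter, was -1.62 (adjusted p = 0.00365), Slc6a18, an amino acid transporter, -1.12 (adjusted p = 0.000216), and Abcc2, an export pump, -0.87 (adjusted p = 0.0011). Slco1a1 was at -1.16 and did not pass (adjusted p = 0.0631). It read 3.27 in Trp53(+/+) AAI replicate 1 and 5.47 to 6.08 in the other 4. Of the tubular enzymes, 7 of 43 were lower, against 1.28% of all clusters. Among them were Cyp2j13 (-1.17), Fah of tyrosine breakdown (-1.01), Glyat, which conjugates glycine (-0.98), and Acsm1 (-0.79). That count ranged from 3 to 12 with single arrays left out, and was 12 without Trp53(+/+) AAI replicate 1, 3 without its replicate 2, 3 or 5, and 4 when replicate 1 or 2 of the Trp53(-/-) AAI kidneys was left out.

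Some genes of the list for AAI activation and phase II conjugation and of the Nrf2 list were lower. Uptake and activation of AAI were not measured here, and the study cites earlier work in which Trp53 status left AAI-DNA adduct formation unchanged. Of 33 activation and phase II genes 5 were lower, against 1.28% of all clusters, and 0 higher, and their mean levels did not overlap between the groups. Besides Ces2e these were led by Gsta2, a glutathione transferase (-1.09, adjusted p = 0.00894), Cyb5a, cytochrome b5 (-0.56, adjusted p = 0.00756), and Ces2f, a close copy of Ces2e in sequence family (-0.74, adjusted p = 0.0239). The count of 5 was 3 without Trp53(-/-) AAI replicate 1 or 2, and 1, Ces2e, with any batch term. Of 23 Nrf2 pathway genes 3 were lower, Slc7a11, the cystine importer (-1.20, adjusted p = 0.00626), Gclm, of glutathione synthesis (-0.86, adjusted p = 0.00183), and Prdx1, a peroxiredoxin (-0.44, adjusted p = 0.00744), and 0 or 1 were called with a batch term. Of 28 fatty acid oxidation and 30 respiratory chain genes 0 passed, with medians of -0.03 and 0.10.

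Tubular injury genes were higher for 5 of 39 members, against 1.82% of all clusters, and lower for 0, with a median of 0.31 in AAI and 0.45 in water kidneys. Between 0 and 3 were higher with a batch term, and the median turned to -0.26 with Trp53(+/+) replicate 1 as the array in the shared batch. Atf3, a stress transcription factor (0.85, adjusted p = 0.00356), Tnfrsf12a, the TWEAK receptor (0.61, adjusted p = 0.0124), and Il24 (1.04, adjusted p = 0.0124) were among them. Their count was 9 without Trp53(+/+) AAI replicate 1, and 3 when replicate 3 of either genotype was left out. Lcn2, the injury marker NGAL, read 12.59, 10.16, 10.77, 11.46 and 11.34 in Trp53(+/+) AAI arrays and 12.23, 12.31, 12.65, 13.24 and 12.44 in Trp53(-/-) AAI arrays. It was 2.48-fold higher (adjusted p = 0.0242), replicate 1 alone lay within the range of the other genotype, and the difference was -0.01 against that array by itself. In water kidneys Lcn2 was 1.81 higher in Trp53(-/-) than in Trp53(+/+) (adjusted p = 0.0121), and it was at 6.48 in Trp53(+/-) and 6.47 in Trp53(-/-) water kidneys. The immediate early gene Egr1 was 1.08 higher (adjusted p = 0.0159) and Klf6 0.57 higher (adjusted p = 0.0485), 2 of the 4 of 23 on that list called higher. The list's median was 0.14 in AAI kidneys and 0.32 in water kidneys, where 3 were called higher. Between Trp53(+/-) and Trp53(+/+) water kidneys, which differ in batch, it was 0.28. With a batch term 0 of the 23 were called under any assignment, and with Trp53(+/+) replicate 1 in the shared batch the Egr1 difference turned to -0.06 and so did the list's median. The count of 4 was 2 without Trp53(+/+) AAI replicate 4 or 5 or Trp53(-/-) AAI replicate 2 or 3. Cd44, a hyaluronan receptor of injured tubules, was at 0.92 (adjusted p = 0.143).

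Of hypoxia and glycolysis genes Edn1, endothelin 1, rose (1.01, adjusted p = 0.0124) and Ak4, a mitochondrial adenylate kinase, was lower (-0.85, adjusted p = 0.0369), 2 of 26. The Ak4 call was lost in 6 of the 10 fits with an AAI array left out (highest adjusted p 0.153), and its difference turned to 0.16 with Trp53(+/+) replicate 4 in the shared batch. Of endothelial, podocyte, loop of Henle, distal tubule, adipocyte, red blood cell, adrenal and urothelial markers 0 passed, with list means that differed by 0.42 for adipocyte, 0.33 for urothelial and 0.22 for endothelial and loop of Henle markers and by -0.08 to 0.10 for the others, all overlapping between the groups. Those that passed were 1 of 16 fibroblast markers (Rgs5, 0.47, adjusted p = 0.0477) and 1 of 16 collecting duct markers (Slc4a9, 0.54, adjusted p = 0.0394). Over all clusters 3.1% were called, so 1 or 2 calls in a list of this size say little about the list. Of 21 measured genes that the study names 7 passed, and 10 that did not and are not described above lay between -0.81 and 0.87 (smallest limma adjusted p 0.0666). The study named them from changes against control kidneys within a genotype, and Rap2b for Trp53(+/-) kidneys. That comparison differs from the one made here, so the count does not test the study's lists. Between Trp53(-/-) and Trp53(+/-) water kidneys, which shared a batch, limma called 0 clusters, with 1011 at an unadjusted p under 0.05 (4.57%).

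Water kidneys of the 2 genotypes also differed, in groups that lay wholly in different batches. There 142 clusters differed (0.641% of those tested), 94 higher (0.425%) and 48 lower (0.217%) in Trp53(-/-). Of the 404 clusters higher in AAI kidneys, 364 had a water difference above 0 and 25 passed there, and of the 283 lower ones 227 lay below 0 and 12 passed. These 2 comparisons share no arrays, but both hold the same batch split. A batch term left 0, 20, 0, 41 and 0 clusters called in water kidneys for Trp53(+/+) AAI replicates 1 to 5 as the array in the shared batch, with 718, 2364, 1497, 2303 and 1509 at an unadjusted p under 0.05 by limma.

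**Figure D5:**
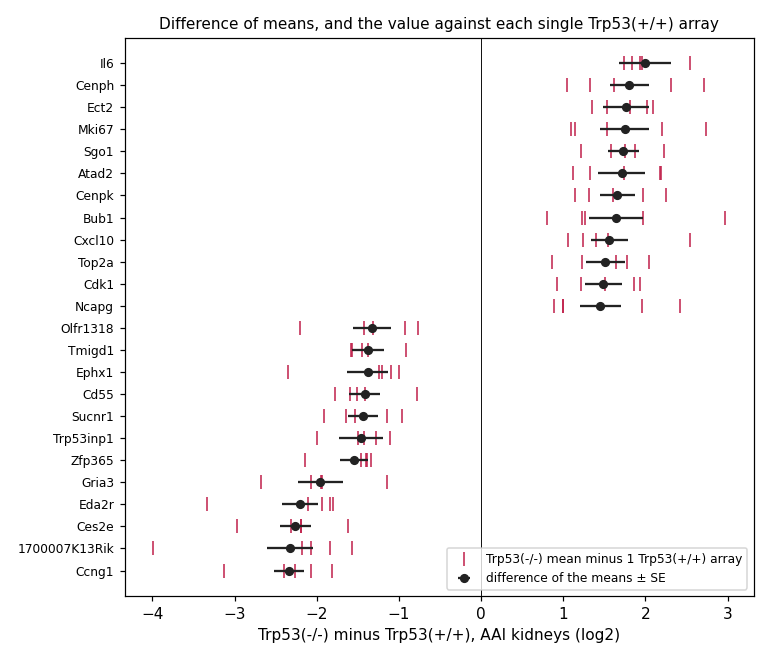
Difference between Trp53(-/-) and Trp53(+/+) AAI kidneys (horizontal axis, log2) for the 12 genes with the highest and the 12 with the lowest differences; black points are differences of the means ± SE (n = 5 per group) and red ticks the Trp53(-/-) mean minus each of the 5 Trp53(+/+) arrays, which is the value a batch term gives when that array is the one in the shared batch. Ccng1 ranges from -3.13 to -1.82 and Mki67 from 1.10 to 2.74.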

How the data were processed

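The deposited log2 values of 30 Clariom S arrays were made by the authors in the Transcriptome Analysis Console, by the Robust Multi-array Average method. Background and differences between arrays had thus been adjusted before deposit, and signal near background compresses differences. Arrays carry no read depth, and 5 per group limit the precision. Of 22206 transcript clusters 19572 had a symbol through the platform table. Where clusters shared a symbol the brightest was kept, which left 22139. Group means of all 30 arrays were fitted in limma 3.58.1 (R 4.3.3, statmod 1.5.0) with 24 residual and 7.21 prior degrees of freedom, and p-values are two-sided with Benjamini-Hochberg adjustment. Nothing says that arrays of a group came from separate litters. Batches were taken from the study's methods and its marked heat map, not from the sample labels.

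Genes were named by rule. They are the 12 highest and 12 lowest called differences with separate arrays, called p53 targets, up to 4 called genes per list, and genes the study names. The comparison and the 38 lists were chosen with earlier results of these data known, and arrays were assigned to groups by their labels. The fit was tested on simulated data before use. Alternatives were fewer arrays in the fit, dim clusters left out, renormalization, median centring, other variance priors, array weights, a replicate block, batch terms, other thresholds, a plain F test without batch and single arrays left out.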

Additional observations from a re-analysis of the deposited data

Results flagged for a closer look

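A single array lay far from the other 4 of its group for 25 of 268 checks of a gene or list in a group, where chance flags about 1 in 20, and 11 of the 25 were Trp53(+/+) AAI replicate 1. That array read 11.69 for Cdkn1a, 7.87 for Eda2r, 9.68 for Ephx1, 6.87 for Pmaip1, 7.48 for Zfp365 and 8.47 for 1700007K13Rik, all above the rest of its group. Its mean over the arrest list was 7.87 and over the apoptosis list 7.19, also the highest. It read 6.10 for Ccne1 and 10.60 for Egr1, above the others, and 3.27 for Slco1a1, below them.

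In Trp53(+/+) AAI replicate 5, Abcc2 was high at 10.72, while Brca1 (4.79), Il6 (3.89) and Ticrr (5.01) were low. In Trp53(+/+) AAI replicate 4, Slc6a18 (8.08) and Tmigd1 (8.46) were low, and the adipocyte and urothelium marker lists were high at 6.73 and 6.14. In Trp53(-/-) AAI replicate 3, Cad (4.56) and Glyat (7.72) were low and Pmaip1 (5.87) was high. In Trp53(-/-) AAI replicate 5, Birc3 (7.53) and the neutrophil list (4.74) were low and the red blood cell list, with 2 measured markers, was high at 7.68. The adipocyte list was also high in that array, at 7.99, and in Trp53(-/-) AAI replicate 1, at 6.56, against 4.76 to 5.23 in the other Trp53(-/-) AAI arrays.

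For 15 named genes the genotype difference in AAI kidneys differed from that in water kidneys by the interaction test of limma. The AAI difference minus the water difference was -2.88 for Ces2e, -3.38 for 1700007K13Rik, -1.97 for Zfp365, -2.0 for Ccng1, -2.37 for Eda2r, -1.60 for Mdm2, -2.05 for Olfr1318 and -2.42 for Trp53inp1. It was -1.11 for Perp, -1.0 for Ercc5, -1.20 for Tnfrsf10b, -1.55 for Mmp2, -1.87 for Ephx1 and -1.37 for Cd55. For Sgo1 alone among the 15 it was positive, at 1.46. The adjusted p ranged from 7.5e-08 for Ces2e to 0.0168 for Cd55.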

How the results depend on the processing

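Batch and genotype were largely confounded, and a batch term leaves a single Trp53(+/+) array in the comparison, which by itself lowers the counts. With the Trp53(+/+) AAI replicate 1, 2, 3, 4 or 5 taken as the array in the second batch, 2, 54, 1, 116 and 85 clusters were higher and 24, 175, 6, 20 and 54 lower, where the main counts were 404 and 283. The direction of 396 of the 404 and of 269 of the 283 was the same under all 5 assignments, and 2 of the 687 calls passed under all of them and 392 under none. For the 371 of the 687 with every array apart the direction was fixed in advance, since each batch-term value uses a single Trp53(+/+) array. The shared direction therefore does not test the batch. Fitting the 10 AAI arrays alone gave 183 higher and 103 lower, and the 20 arrays of both genotypes (an alternative chosen after seeing the data) 269 and 180 in AAI and 53 in water kidneys. A 2-fold threshold left 78 higher, 36 lower and 28 in water kidneys. A plain F test of the 2 groups at an unadjusted p under 0.05 and 2-fold gave 81, 35 and 42, and after Benjamini-Hochberg adjustment 0, 0 and 13. That test held no batch term, while the study states that its analysis of variance was corrected for batch. With arrays left out in turn the higher count ranged from 231 (without Trp53(-/-) replicate 3) to 499 (without Trp53(+/+) replicate 1), the lower count from 168 (without Trp53(+/+) replicate 2) to 373 (without Trp53(+/+) replicate 1), the interaction from 21 to 33 and the water count from 48 (without Trp53(-/-) replicate 4) to 336 (without Trp53(+/+) replicate 1). Other AAI arrays also moved a count by over 1.5 times. The higher count was 256 when Trp53(+/+) replicate 5 was left out and 232 for Trp53(-/-) replicate 2, and the lower count was 174 for replicate 3 of either genotype and 188 for Trp53(-/-) replicate 2. In water kidneys 86, 63, 56 and 52 remained without Trp53(+/+) replicate 2, 3, 4 and 5, and 82 and 49 without Trp53(-/-) replicate 3 and 5. With a batch term for replicates 1 to 5 as above (chosen after seeing the data for water kidneys) the water count was 0, 20, 0, 41 and 0. The interaction of 23 became 39 after quantile normalization and 35 with a trended and robust prior.

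Of the 91 called genes that the rule names, 69 passed without each of the 10 AAI arrays in turn, and Acsm1, Ak1, Ak4, Birc3, Brca2, Cad, Casp4, Ccne1, Ces2f, Ddit3, Edn1, Egr1, Ei24, Il24, Klf6, Lcn2, Myc, Pmaip1, Rgs5, Rrm2, Slc4a9 and Tnfrsf12a lost their call at least once. Of the 91, 86 had the same direction under all 5 batch assignments, which is fixed in advance for genes with every array apart. The direction turned for Acsm1 (0.047), Cd44 (-0.57), Egr1 (-0.062), Lcn2 (-0.011) and Slco1a1 (0.77) with replicate 1, and for Ak4 (0.16), Glyat (0.02) and Cdkn1a (0.24) with replicate 4, as the array in the second batch; Cdkn1a ranged from -0.59 to 0.013 with arrays left out. The cause was not tested. The replicate numbers did not pair the arrays (correlations of -0.002 to 0.202 between same-numbered arrays), and with the replicate number as a block 386 clusters were higher and 275 lower. The array number limits small differences, and arrays give no depth.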
